A study of Mus musculus with 18 samples.

Results

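Mouse embryonic fibroblasts (MEFs) labelled Ago2-/- and treated with thapsigargin were set beside MEFs labelled Ago2+/+ and treated with the solvent DMSO. The pair was selected on the FPKM values of these same groups, whose expression was nearly the same although their labels differ in both genotype and treatment. The pair covers 6 of the 18 RNA-seq libraries of the series, 3 in each of its 6 groups. The authors' FPKM (fragments scaled for transcript length and sequencing depth) is 1 pooled value per group for each of 51499 assembled loci. After 6 copies of mitochondrial genes on chromosome 1 were left out, 51493 loci were kept, and 11522 of them had a mean of at least 1 FPKM over the pair. All ratios below are the group labelled Ago2-/- thapsigargin (here the thapsigargin-labelled group) over the group labelled Ago2+/+ DMSO (the DMSO-labelled group), as log2 of FPKM + 0.1. They carry no replicate spread, the depth is unknown, and no test was run. The authors' deposited test columns were not used. Whether any difference exceeds the error between replicates can thus not be said from the values given here.

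The thapsigargin-labelled cells received 500 nM thapsigargin for several hours, according to the labels and the methods of the study. The other 4 groups are Ago2-/- with DMSO or tunicamycin, which blocks N-glycosylation, and Ago2+/+ with tunicamycin or thapsigargin. The fibroblast lines of both genotypes were obtained from another laboratory and were not authenticated, a western blot is stated to have checked that the AGO2 protein was missing from the Ago2-/- cells, and which part of Ago2 is deleted is not stated in those sources. The groups labelled Ago2+/+ are titled DCR1. The labels of 4 libraries conflict on genotype, and 1 of these belongs to the DMSO-labelled group and 0 to the thapsigargin-labelled group. The pooled values give no way to leave that library out. Genotype, treatment and cell line cannot be told apart within the pair.

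Thapsigargin blocks the SERCA pump that fills the endoplasmic reticulum (ER) with calcium. The resulting loss of ER calcium makes proteins misfold and starts the unfolded protein response. Its ATF6 and IRE1-XBP1 arms induce ER chaperones and the machinery of ER-associated degradation (ERAD), and its PERK arm lowers translation and, through ATF4 and CHOP, induces genes of amino acid supply and of the integrated stress response. AGO2 is the Argonaute protein that slices RNA in RNA interference.

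The labels were examined first. Ago2 (chromosome 15, 73090392 to 73184840, minus strand, GRCm38) was 20.7 FPKM in the thapsigargin-labelled group and 22.1 FPKM in the DMSO-labelled group. The group labelled as a knockout thus carried the transcript at nearly the level of the wild-type-labelled group, while the other 4 groups lay between 5.61 and 17.0 FPKM. The locus that holds Xist, the RNA of the inactive X chromosome, was at 33.5 and 46.6 FPKM in the pair and at most at 0.0574 FPKM in the other 4 groups. Of the Y chromosome, Uty, Kdm5d, Ddx3y and Eif2s3y all had 0 FPKM in both groups of the pair. Of 12 fibroblast markers, 8 and 7 reached 1 FPKM, with summed levels of 1612 and 1717 FPKM, carried mainly by Vim, Fn1, Col1a1 and Col1a2. Thy1 and Lum, which also mark fibroblasts, were listed at 0 in both groups. None of the 6 epithelial, 4 endothelial and 4 skeletal muscle markers reached 1 FPKM in either group. The leukocyte markers summed to 2.36 and 1.95 FPKM, and the only one that reached 1 FPKM was Cd68, at 1.82 and 1.77 FPKM. Markers of adipocytes summed to 1.61 and 0.808 FPKM, those of chondrocytes to 3.25 and 1.71 FPKM (mostly Sox9) and those of neural cells to 0.00361 and 0 FPKM. In bulk RNA, fewer cells of a type and less RNA per cell cannot be told apart.

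Within the pair, 364 of the 11522 loci (3.16%) differed at least 2-fold. Of these, 193 (1.68%) were higher in the thapsigargin-labelled group and 171 (1.48%) were lower. The median log2 ratio of all loci was -0.02, the median absolute log2 ratio was 0.168, and 10519 loci (91.3%) lay within 1.5-fold. Of the 15 pairs of groups, 2 others were similarly close and share no group with this one. Ago2-/- DMSO over Ago2+/+ tunicamycin had 164 of 11559 loci (1.42%) at least 2-fold apart, 94 higher (0.813%) and 70 lower (0.606%), with a median absolute log2 ratio of 0.0895. Ago2-/- tunicamycin over Ago2+/+ thapsigargin had 192 of 11648 (1.65%), 97 higher (0.833%) and 95 lower (0.816%), with 0.119. The pair described here was the widest of the 3 close pairs, while the other 12 pairs of groups differed at between 1974 and 2659 loci (16.8% to 22.4%).

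**Figure D1:**
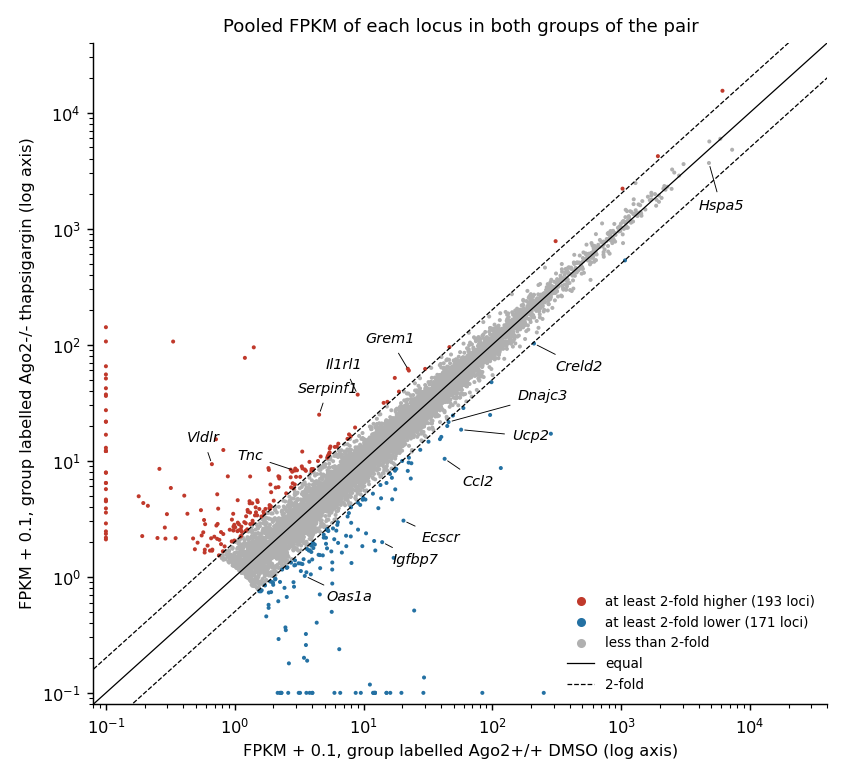
The FPKM + 0.1 of each of the 11522 loci in the DMSO-labelled group (x axis) and the thapsigargin-labelled group (y axis), both on log axes, with the 193 loci at least 2-fold higher in red and the 171 at least 2-fold lower in blue. Nearly all points lie along the line of equality, and 61 coloured points lie on an edge because the locus was listed at 0 in 1 group.

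Genes were named by ratio among the 7592 loci with a single symbol, no near copies and a mean level of 5 FPKM or more, of which 32 were at least 2-fold higher and 30 at least 2-fold lower. The highest ratio was that of Serpinf1 (chromosome 11, 75409769 to 75422701, minus strand), which encodes the secreted anti-angiogenic serpin PEDF. It was 24.8 FPKM in the thapsigargin-labelled group and 4.42 FPKM in the DMSO-labelled group, a log2 ratio of 2.46. Both were below the other 4 groups, which stood at 80.9 FPKM in Ago2-/- DMSO, 289 FPKM in Ago2-/- tunicamycin, 242 FPKM in Ago2+/+ thapsigargin and 73.7 FPKM in Ago2+/+ tunicamycin. Il1rl1 (chromosome 1, 40429570 to 40465415, plus strand), the receptor of interleukin-33, was 37.0 against 8.91 FPKM (2.04). Here the thapsigargin-labelled group stood above all others, which did not exceed 14.5 FPKM.

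Fgf21, a stress hormone induced by ATF4, was 8.46 against 2.85 FPKM (1.54). Tnc, the matrix glycoprotein tenascin C, was 8.13 against 2.82 FPKM (1.49). Grem1, a secreted antagonist of BMPs, was 59.7 against 22.4 FPKM (1.41). For these 3 genes, the thapsigargin-labelled group lay within the range of the other 4 groups, and the DMSO-labelled group was the lowest of all 6 for Tnc and Grem1. The growth factor Nrg1 was 8.49 against 3.26 FPKM (1.35), with both groups below the range of the other 4 (11.0 to 12.8 FPKM). Angptl4, which inhibits lipoprotein lipase, was 7.16 against 3.12 FPKM (1.17). The remaining genes with the highest ratios were of mixed kinds. Ndrg2, of the NDRG family, was 11.9 against 3.24 FPKM (1.84), Bpifb4 was 7.94 against 2.69 FPKM (1.52) and Ttc9 was 9.68 against 3.71 FPKM (1.36), and all 3 were above the other 4 groups in both members of the pair. Stxbp6, a SNARE-binding protein, was 13.2 against 5.43 FPKM (1.26), and E2f6, a repressor of the E2F family, was 12.7 against 5.36 FPKM (1.23). These 2 lie on chromosome 12 and stood at 0.88 and 0.93, short of 2-fold, relative to the loci around them (described further on). Fam213a (1.43), Lsp1 (1.20) and the secreted carbonic anhydrase Car6 (1.23) complete the list. Car6 was also higher in 1 other close pair, Ago2-/- DMSO over Ago2+/+ tunicamycin (1.64).

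Among the lowest ratios, Igfbp7 (chromosome 5, 77310147 to 77408041, minus strand), a secreted binding protein of insulin-like growth factors, was 1.89 FPKM in the thapsigargin-labelled group and 13.9 FPKM in the DMSO-labelled group. That is a log2 ratio of -2.81, and both values were below those of Ago2-/- DMSO (107 FPKM), Ago2-/- tunicamycin (40.8 FPKM), Ago2+/+ thapsigargin (45.6 FPKM) and Ago2+/+ tunicamycin (105 FPKM). Ecscr, a cell surface protein known from endothelial cells, was 2.95 against 20.3 FPKM (-2.74). Its level in the DMSO-labelled group was the highest of all 6, while the 4 endothelial markers summed to 0.121 and 0.160 FPKM in the pair. The monocyte chemoattractant Ccl2 was 10.3 against 42.6 FPKM (-2.04), and here it was the thapsigargin-labelled group that lay outside the other 4 (39.1 to 59.8 FPKM).

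Ucp2, a mitochondrial carrier, was 18.4 against 57.2 FPKM (-1.63), with at most 2.13 FPKM in the other 4 groups. Abcg2, a drug efflux pump, was 4.65 against 13.6 FPKM (-1.53). Ulbp1, a ligand of the natural killer receptor NKG2D, was 6.93 against 23.2 FPKM (-1.73). Il15ra, a receptor chain of interleukin-15, was 2.82 against 7.92 FPKM (-1.46), and the galectin gene Lgals9 was 15.3 against 39.1 FPKM (-1.35). Klf2, a transcription factor induced by serum and flow, was 4.53 against 10.2 FPKM (-1.16). Fhl1, a LIM domain protein of muscle, was 9.42 against 23.4 FPKM (-1.31) and Dynap was 3.80 against 12.9 FPKM (-1.74). The noncoding Snhg7 was 7.03 against 16.5 FPKM (-1.22, or -0.96 relative to the loci around it). Its locus, classed as a small RNA, was also lower in 1 other close pair, Ago2-/- tunicamycin over Ago2+/+ thapsigargin (-1.24). Tmem37 (-1.19) and Rab26os (-1.17) complete the list with Rny1, a Y RNA that was listed at 0 in the thapsigargin-labelled group and at 16.0 FPKM in the DMSO-labelled group.

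**Figure D2:**
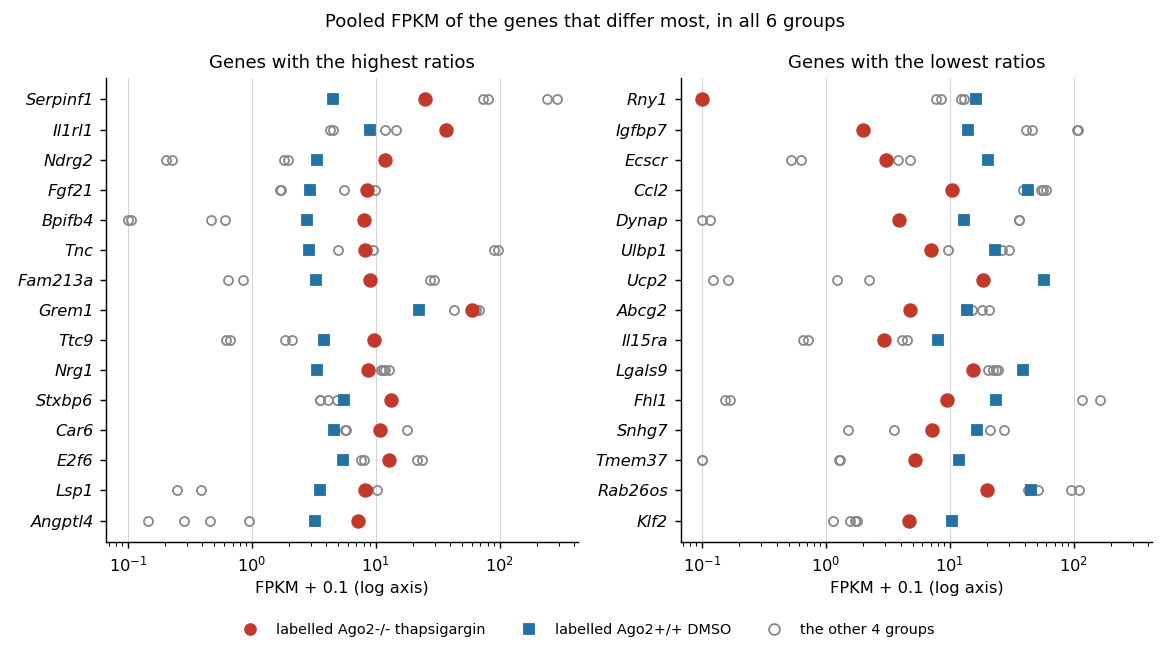
The pooled FPKM + 0.1 (log axis) of the 15 genes with the highest and the 15 with the lowest ratios, in the thapsigargin-labelled group (red circles), the DMSO-labelled group (blue squares) and the other 4 groups (open circles). The members of the pair often lie next to each other compared with the other groups, as for Ucp2 (18.4 and 57.2 FPKM) and Ndrg2 (11.9 and 3.24 FPKM).

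The loci at least 2-fold apart differ in which member of the pair departs from the other 4 groups. Of the 193 higher loci, 55 lay above the range of the other 4 in the thapsigargin-labelled group and within it in the DMSO-labelled group. For 26 it was the DMSO-labelled group that lay below the range, with the thapsigargin-labelled group within it. Both members lay above the range for 34 loci and below it for 19. Of the 171 lower loci, 44 lay above the range in the DMSO-labelled group alone, 27 lay below it in the thapsigargin-labelled group alone, 28 were above and 20 below it in both. Both members lay within the range for 52 of the higher and 44 of the lower loci, and on opposite sides of it for 7 and 8. The direction of the ratio bars some of these combinations, and the same counts were not taken over all loci. The counts therefore only describe these loci.

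The genes of the unfolded protein response were examined next, since the labels put thapsigargin on 1 member of the pair. Of the 22 ER chaperones and folding enzymes, 0 were at least 2-fold higher and 2 lower, against 1.68% and 1.48% of all loci. Their median log2 ratio was -0.23 against -0.02 for all loci, and 19 of the 22 were below 0. Hspa5 (chromosome 2, 34771970 to 34777547, plus strand), the master chaperone BiP, was 3677 FPKM in the thapsigargin-labelled group and 4808 FPKM in the DMSO-labelled group (-0.39). In the other 4 groups it was 7682 FPKM (Ago2-/- DMSO), 5155 FPKM (Ago2-/- tunicamycin), 5367 FPKM (Ago2+/+ thapsigargin) and 6746 FPKM (Ago2+/+ tunicamycin), so that the pair held the lowest values of all 6. Creld2 (chromosome 15, 88819646 to 88826681, plus strand), an ER folding factor, was 102 against 211 FPKM (-1.04), and the other 4 groups lay between 321 and 467 FPKM. Dnajc3, the co-chaperone P58IPK, was 21.5 against 45.6 FPKM (-1.09). Sdf2l1 (96.4 against 164 FPKM, -0.76) and Hyou1 (140 against 228 FPKM, -0.71), partners of BiP, followed. For these 4 genes too, both members of the pair were below the other 4 groups, and the thapsigargin-labelled group was the lower of the pair. The disulfide isomerase Pdia6 (449 against 371 FPKM, 0.27) and the oxidase Ero1l (84.7 against 73.8 FPKM, 0.20) had the highest ratios of the list.

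The upstream sequences of 3 of these genes are shown because they hold the ER stress response element, the site by which ATF6 is known to induce chaperones. The 250 bases before the RefSeq transcription start (GRCm38.p6) are written 5′ to 3′ on the strand of the gene. Capitals mark the letters searched on both strands, CCAAT, any 9 bases, then CCACG.
Creld2, chr15:88819396-88819645, plus strand: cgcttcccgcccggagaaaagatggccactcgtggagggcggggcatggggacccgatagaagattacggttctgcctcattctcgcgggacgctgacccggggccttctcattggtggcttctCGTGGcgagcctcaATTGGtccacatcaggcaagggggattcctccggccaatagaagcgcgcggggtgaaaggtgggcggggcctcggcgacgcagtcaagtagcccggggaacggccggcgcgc
Dnajc3, chr14:118937682-118937931, plus strand: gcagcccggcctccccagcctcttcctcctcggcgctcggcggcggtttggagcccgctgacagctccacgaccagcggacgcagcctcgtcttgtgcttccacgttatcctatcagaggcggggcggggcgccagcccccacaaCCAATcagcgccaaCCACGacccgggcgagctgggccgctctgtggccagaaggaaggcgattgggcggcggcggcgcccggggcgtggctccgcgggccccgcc
Hspa5, chr2:34771840-34772089, plus strand: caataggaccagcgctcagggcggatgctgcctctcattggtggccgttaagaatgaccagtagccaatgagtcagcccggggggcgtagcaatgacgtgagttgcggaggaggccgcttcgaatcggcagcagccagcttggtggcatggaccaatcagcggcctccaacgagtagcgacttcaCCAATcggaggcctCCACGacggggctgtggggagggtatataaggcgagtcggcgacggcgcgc

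In these promoters, the match of Creld2 lies on the opposite strand to the gene. The motif was found in 7 of 18 promoters of the chaperone list (38.9%) and in 35 of 27025 promoters of all genes (0.13%). It was found in 3 of 74 promoters of the genes at least 2-fold lower (4.05%) and in 0 of 84 of those at least 2-fold higher. Hspa5, Creld2 and Dnajc3 had lower levels in the thapsigargin-labelled group. Pdia6 and Canx, whose promoters hold the motif too, were at 0.27 and -0.01. Pdia6 lies on chromosome 12 and stood at -0.08 relative to the loci around it (described further on). A match is a description of the letters only. Of the ERAD promoters, 2 of 14 (14.3%) hold the motif.

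The genes of ERAD and the XBP1 arm lay lower as well, at a median log2 ratio of -0.38 over 17 loci. Against 3.16% of all loci, 0 of the 17 were at least 2-fold apart, and 15 were below 0. Hspa13 was the lowest of them (-0.79). Syvn1, the ubiquitin ligase HRD1, was 37.5 against 61.4 FPKM (-0.71), and Edem1, which takes glycoproteins to degradation, was 26.8 against 42.5 FPKM (-0.66). Herpud1, a scaffold of the ligase, was 207 against 293 FPKM (-0.50), and Xbp1 itself was 93.7 against 91.6 FPKM (0.03).

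In contrast to the chaperones, the PERK arm and the integrated stress response lay near all loci, at a median of 0.05 over 15 loci. Of the 15, 2 were at least 2-fold higher, against 1.68% of all loci, and 0 were lower. Atf4 was 407 against 394 FPKM (0.05) and Ddit3, which encodes CHOP, was 253 against 237 FPKM (0.09). Vldlr, a lipoprotein receptor, was 9.24 against 0.565 FPKM (3.81). The DMSO-labelled group had the lowest value of all 6 and the other 4 groups lay between 3.68 and 28.2 FPKM. The other higher gene was Fgf21. The lowest of the list was Eif2ak3, the PERK kinase itself, at 6.40 against 8.83 FPKM (-0.46). The 15 loci of amino acid supply had a median of 0.14, with 0 at least 2-fold apart, and the cystine transporter Slc7a11 was the highest (12.1 against 7.45 FPKM, 0.69). The 16 loci of ER calcium handling had a median of -0.18 and 0 at least 2-fold apart. Of all loci, 3.16% were at least 2-fold apart. Atp2a2, the SERCA pump that thapsigargin blocks, was 240 against 272 FPKM (-0.18), Stim1, the sensor of ER calcium, was 9.70 against 12.2 FPKM (-0.33), and Itpr2, a release channel, was 4.28 against 2.54 FPKM (0.73).

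**Figure D3:**
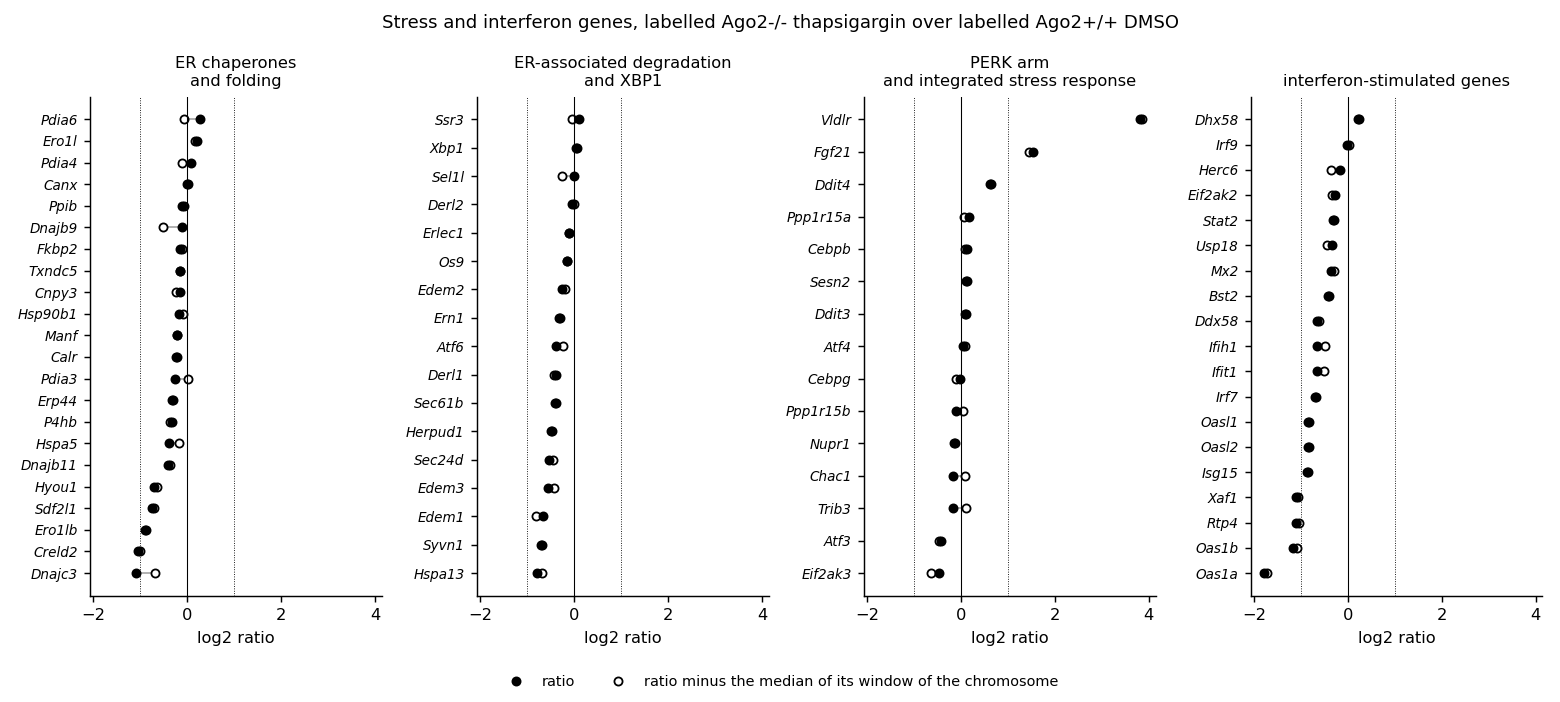
The log2 ratio of the genes of the ER stress and interferon lists that passed 1 FPKM, except 1 interferon gene (filled circles), and the same ratio minus the median of the window, 1 of 10 along its chromosome, in which the gene lies (open circles). Chaperone, ERAD and interferon genes lie mostly left of 0, and Vldlr (3.81) and Fgf21 (1.54) stand apart on the right of the PERK panel.

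Interferon-stimulated genes had the lowest median of all 28 lists, -0.65 over 20 loci, of which 19 were below 0. Of the 20, 4 (Oas1a, Oas1b, Rtp4 and Xaf1) were at least 2-fold lower, against 1.48% of all loci, and 0 were higher. The 4 became 1 with a pseudocount of 1 FPKM and 0 among the 12 loci with a mean of 5 FPKM or more, where the medians were -0.55 and -0.53. These genes encode antiviral effectors and are switched on by type I interferon. Isg15, a ubiquitin-like modifier, was 21.4 FPKM in the thapsigargin-labelled group and 39.2 FPKM in the DMSO-labelled group (-0.87). In the order used above, the other 4 groups stood at 1.43, 5.56, 2.34 and 0.881 FPKM, so that both members of the pair were above them. Oas1a, a synthetase that senses double-stranded RNA, was 0.917 against 3.40 FPKM (-1.78), with at most 0.0322 FPKM elsewhere. Bst2, the virus tether tetherin, was 47.6 against 63.5 FPKM (-0.42). Of the transcription factors in the list, Irf7 was at -0.70, Stat2 at -0.31 and the locus of Irf9 and Rnf31 at -0.01. The RNA sensors Ddx58 and Ifih1 were both at -0.65, while Dhx58, at 0.22, was the only one of the 20 loci above 0. A further 11 genes of the list had a mean under 1 FPKM and were not counted, among them Rsad2 (0.136 against 1.01 FPKM) and Oas3 (0.238 against 1.06 FPKM).

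The promoters of Oas1a, the lowest ratio of the list, and Isg15 are shown because they hold the core of the interferon-stimulated response element, with its letters in capitals (GAAA, any 2 bases, then GAAA). The regions are those of RefSeq on GRCm38.p6, 250 bases before the start, 5′ to 3′ on the strand of the gene.
Oas1a, chr5:120907526-120907775, minus strand: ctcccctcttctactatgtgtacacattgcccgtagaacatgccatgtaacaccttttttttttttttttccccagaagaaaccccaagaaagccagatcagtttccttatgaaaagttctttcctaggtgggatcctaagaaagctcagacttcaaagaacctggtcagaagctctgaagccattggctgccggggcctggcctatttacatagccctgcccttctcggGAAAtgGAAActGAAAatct
Isg15, chr4:156200819-156201068, minus strand: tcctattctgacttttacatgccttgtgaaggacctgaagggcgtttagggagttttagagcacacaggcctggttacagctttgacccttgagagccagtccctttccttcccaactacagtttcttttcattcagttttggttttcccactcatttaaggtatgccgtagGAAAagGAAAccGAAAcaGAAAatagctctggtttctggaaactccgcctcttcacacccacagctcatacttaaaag

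The core was searched on both strands, and overlapping matches were counted. It was found in 10 of 21 promoters of the interferon list (47.6%) and in 936 of 27025 promoters of all genes (3.46%). Of the genes at least 2-fold lower, 2 of 74 promoters held it (2.7%).

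Chemokines differed less evenly. Of 11 loci, 3 (Ccl2, Ccl20 and Ccl7) were at least 2-fold lower, against 1.48% of all loci, and 0 were higher. The median of the 11 was -0.20. Ccl20, a ligand of CCR6, was 0.950 against 3.80 FPKM (-1.89). Ccl5, a chemoattractant of T cells, was 27.3 against 41.3 FPKM (-0.60), and Cxcl10, a ligand of CXCR3, was 16.0 against 26.0 FPKM (-0.70). Both of these were above the range of the other 4 groups in both members of the pair. The interleukin-6 family members Il11 (4.09 against 2.55 FPKM, 0.66) and Lif (8.23 against 6.83 FPKM, 0.27) had the opposite sign.

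The median of 15 collagen loci was -0.36, with 9 below 0 and 6 above. Of the 15, 5 were at least 2-fold lower and 1 was at least 2-fold higher, against 1.48% and 1.68% of all loci. Of the 5 lower ones, 3 encode chains of basement membrane collagen IV. Col4a1 was 47.4 against 98.4 FPKM (-1.05), Col4a2 28.3 against 59.5 FPKM (-1.07) and Col4a5 8.39 against 17.9 FPKM (-1.08). Col7a1, of anchoring fibrils, was 3.21 against 7.43 FPKM (-1.19) and Col5a3 was 1.22 against 2.64 FPKM (-1.05). Col18a1, the source of endostatin, was 31.4 against 14.2 FPKM (1.14). Col6a2 (0.87) and Col6a1 (0.50) were above 0 too, without passing 2-fold. The fibrillar collagens Col1a1 (-0.36) and Col1a2 (0.22) differed in sign, but not relative to the loci around them (-0.32 and -0.03). Col4a1 and Col4a2 share a promoter region and lie in the first of 10 windows with equal numbers of loci along chromosome 8, whose loci had a median of -0.24. Relative to that median they stood at -0.82 and -0.83, short of 2-fold, so that 3 of the 5 lower collagens remained past it, Col4a5 the only collagen IV chain among them.

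Of 12 matrix glycoprotein loci, 2 were at least 2-fold higher (Fn1 and Tnc) and 1 was lower (Vcan), with a median of 0.16. Of all loci, 1.68% were at least 2-fold higher and 1.48% lower. Fn1, which encodes fibronectin, was 95.2 against 46.4 FPKM (1.04), both below the other 4 groups (290 to 600 FPKM). The proteoglycan Vcan was 2.47 against 5.12 FPKM (-1.02), and the collagen-binding Sparc was 127 against 221 FPKM (-0.80). Among 10 protease and inhibitor loci, Serpinf1 was the only one at least 2-fold apart. The plasminogen activators differed in sign, with Plat, the tissue type, at 5.45 against 10.4 FPKM (-0.93) and Plau, the urokinase type, at 4.80 against 2.56 FPKM (0.88). Of 10 contractile loci, only Acta2 passed 2-fold, at 3.77 against 0.644 FPKM (2.38), far from the highest value of the other groups, 1644 FPKM.

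Signalling genes were close in most cases. The counts in this paragraph stand beside 1.68% of all loci at least 2-fold higher and 1.48% lower. Of 19 loci of TGF-beta and BMP signalling, 2 were at least 2-fold higher, Grem1 and the ligand Tgfb3 (5.26 against 1.82 FPKM, 1.48), and 0 were lower, with a median of 0.12. The BMP target genes Id1 (0.42), Id2 (0.81) and Id3 (0.77) were above 0 without passing 2-fold. Relative to the medians of their windows, they stood at 0.70, 0.46 and 0.87, and Tgfb3 stood at 1.26. Id2 and Tgfb3 lie on chromosome 12. The activin subunits differed in sign, at -0.77 for Inhba and 0.78 for Inhbb. Of 19 loci of growth factors and receptors, 2 were higher, the receptor Pdgfra (8.28 against 2.62 FPKM, 1.62) and Igfbp4 (19.2 against 8.50 FPKM, 1.17), and 1 was lower, Igfbp7. Of 15 positional identity factors, 13 were above 0 with a median of 0.40, or of 0.25 relative to the loci around each. Hoxd8 was at least 2-fold higher (2.41 against 0.880 FPKM, 1.36) and the limb factor Tbx5 was at least 2-fold lower (1.67 against 3.98 FPKM, -1.21). The posterior gene Hoxd13 was 11.3 against 6.03 FPKM (0.90) and was listed at 0 in the other 4 groups. Of 6 Wnt loci, Tcf7 was at least 2-fold higher (1.11).

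Glycolysis and hypoxia genes lay slightly higher, with 18 of 20 loci above 0 and a median of 0.25. Of the 20, 2 were at least 2-fold higher, against 1.68% of all loci. These 2 were Car9, a carbonic anhydrase (2.79 against 1.12 FPKM, 1.25), and Egln3, an oxygen sensor (10.5 against 5.12 FPKM, 1.02). Neither passed 2-fold with a pseudocount of 1 FPKM, and Egln3, on chromosome 12, stood at 0.77 relative to the median of its window (0.25). Pdk1 (0.68), Ldha (1414 against 1111 FPKM, 0.35), Bnip3 (0.43) and Hk2 (0.43) had the same sign, and Pgam1 had the opposite one (-0.35). Pgam1 lies in the stretch of chromosome 19 whose window had a median of -0.31. Of 20 immediate early loci, 15 were above 0 with a median of 0.21. Klf2 was the only one at least 2-fold apart, against 3.16% of all loci. Myc was 111 against 73.9 FPKM (0.59).

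Proliferation genes differed little, with a median of 0.05 over 18 S phase loci and of 0.03 over 19 G2 and M phase loci, and 0 at least 2-fold apart in either list. The widest ratios among them were those of the replication helicase subunit Mcm3 (191 against 127 FPKM, 0.59) and the sliding clamp Pcna (182 against 233 FPKM, -0.36). Mcm3 lies in a window of chromosome 1 with a median of 0.40 and Pcna in a window of chromosome 2 with a median of -0.23. Lists without a locus at least 2-fold apart were also those of p53 targets (16 loci, median 0.03), cholesterol and fatty acid synthesis (22, -0.17), NRF2 and antioxidant genes (19, 0.00), nuclear respiratory chain subunits (23, -0.05), lysosomal genes (19, 0.00) and histones (7, -0.09). Among the p53 targets, the ratios ran from that of Eda2r, a death receptor (1.11 against 1.98 FPKM, -0.78), to that of Gadd45a, a growth arrest gene (64.1 against 44.8 FPKM, 0.51). Among the lipid genes, they ran from the locus of Scd2, a fatty acid desaturase, and Mir5114 (160 against 221 FPKM, -0.47) to Fasn, the fatty acid synthase (129 against 94.5 FPKM, 0.45). Among the antioxidant genes, they ran from the locus of Gclm, of glutathione synthesis, and Gm6061 (362 against 579 FPKM, -0.68) to Hmox1, heme oxygenase (135 against 97.1 FPKM, 0.47). Among the lysosomal genes, Npc2, which carries cholesterol, was 52.1 against 42.2 FPKM (0.30) and the membrane protein Lamp1 was 296 against 401 FPKM (-0.44). Relative to the medians of their windows, Npc2 stood at 0.08, Lamp1 at -0.21, the locus of Scd2 at -0.16 and Fasn at 0.42. The 11 loci of the RNA silencing machinery had a median of 0.00 and 0 at least 2-fold apart, against 3.16% of all loci. Dicer1 was the highest at 32.6 against 24.9 FPKM (0.39, or 0.14 relative to the median of its window). Of 5 imprinted loci, 2 were at least 2-fold lower, against 1.48% of all loci. These were Sgce, which encodes epsilon-sarcoglycan (1.44 against 4.48 FPKM), and the merged locus of Snurf, Snord107, Snhg14, Gm38393 and Snrpn (1.74 against 7.25 FPKM). The members of the merged locus cannot be told apart. Genes that the study examines individually were close. Nov was 2.85 against 2.45 FPKM, Mertk 2.96 against 2.53 FPKM and C1rl, near the minimum level, 0.957 against 1.19 FPKM. Each was above the other 4 groups in both members of the pair. The study measured their response to ER stress within each genotype, which this pair does not address.

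**Figure D4:**
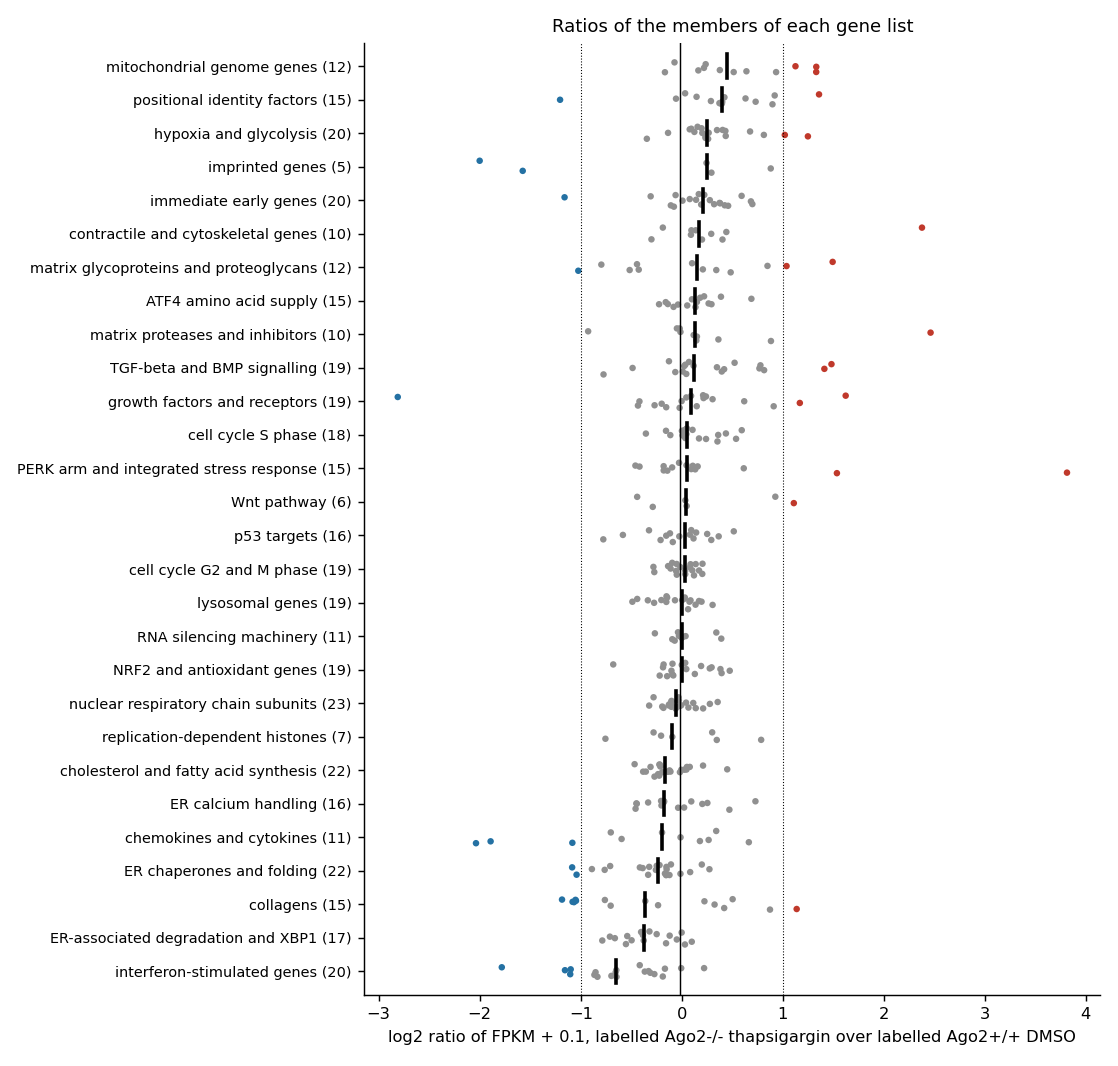
The log2 ratio of each member with a mean of at least 1 FPKM (points), its list's median (thick bar) and the median of all loci, -0.02 (solid line), for the 28 gene lists with the number of loci in brackets. Red and blue points are at least 2-fold higher and lower, and the medians run from -0.65 for interferon-stimulated genes to 0.44 for genes of the mitochondrial genome.

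Small differences were not spread evenly over the genome. The median log2 ratio was 0.28 over the 422 loci of chromosome 12 and 0.19 over the 547 loci of chromosome 6, with 87.2% and 75.7% of loci above 0. It was -0.21 over the 935 loci of chromosome 2, with 23.3% above 0. The other 17 chromosomes lay between -0.10 and 0.05. Chromosome medians of the other close pairs lay between -0.02 and 0.02 and between -0.03 and 0.01. Where the mean was 10 FPKM or more, the medians of chromosomes 12, 6 and 2 were 0.28, 0.21 and -0.21. Relative to the mean of the other 4 groups, chromosome 12 stood at 0.50 in the thapsigargin-labelled group and at 0.21 in the DMSO-labelled group, chromosome 6 at 0.09 and -0.11, and chromosome 2 at -0.15 and 0.04.

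Within chromosomes, the differences formed long stretches. When each chromosome was divided into 10 windows with equal numbers of loci, 41 of 200 windows had a median at least 0.15 from 0 and the medians ran from -0.41 to 0.40. Neither of the other close pairs had such a window (0 of 200 in each), and their medians stayed between -0.09 and 0.08. On chromosome 2, the 749 loci from 3114224 to 155594955 had a median of -0.24, and the 186 loci beyond, up to 181870830, had a median of 0.00. The first 66 loci of chromosome 1 (4771131 to 36528237) had a median of 0.40, against -0.07 for the other 586. The last 39 loci of chromosome 14 (101442360 to 122984035) had a median of -0.41, against 0.01 for the other 352. On chromosome 19, 89.2% of the 111 loci from 41845972 to 61140840 were below 0, at a median of -0.25. On chromosome 3, the sign changed along the chromosome, from 0.14 for the first 180 loci to -0.12 for the other 418. The first 59 loci of chromosome 8 (3122061 to 13881639) had a median of -0.24, the first 168 loci of chromosome 17 -0.15 and the last 185 loci of chromosome 13 0.13. On chromosomes 6 and 12, every window was above 0, between 0.12 and 0.28 and between 0.22 and 0.38. These stretches were chosen after their values were seen, and their medians in the other close pairs lay between -0.05 and 0.03.

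**Figure D5:**
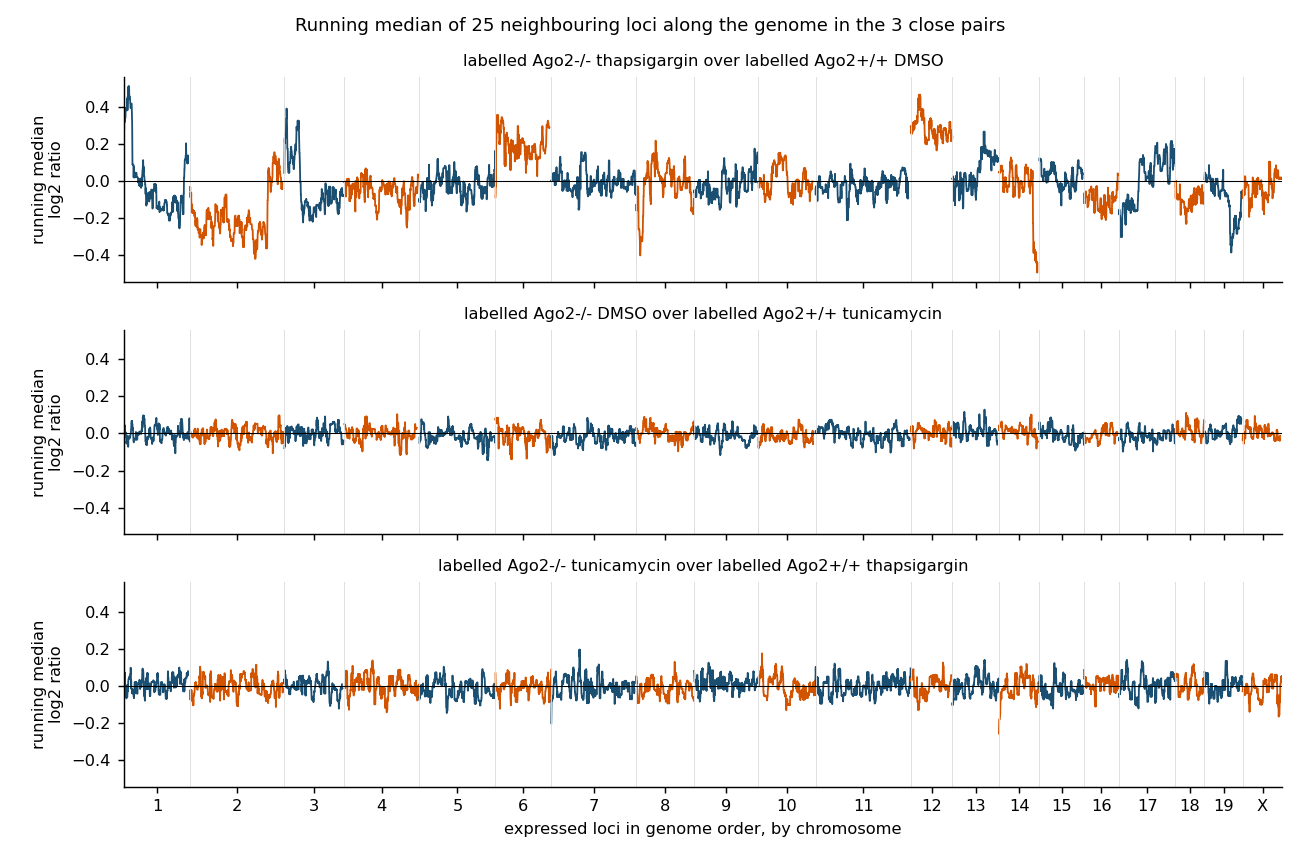
The running median of the log2 ratio over 25 neighbouring loci in genome order (x axis, chromosomes in alternating colours) for the 3 close pairs. The pair described here (top) shows raised plateaus on chromosomes 6 and 12, a lowered one over most of chromosome 2 and shorter steps on chromosomes 1, 3, 8, 14 and 19, while the lines of the other close pairs stay near 0.

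The position of a gene therefore stands beside its ratio. Hspa5 lies in a window of chromosome 2 with a median of -0.21 and differed from it by -0.17. Dnajc3 lies in the last window of chromosome 14 (-0.41) and differed from it by -0.68. Creld2, in a window with a median of -0.03, differed from its window by -1.01. Less the median of its window, the chaperone list stayed at a median of -0.23 with 1 locus at least 2-fold lower in place of 2, as Dnajc3 no longer passed, the ERAD list went from -0.38 to -0.30 and the interferon list from -0.65 to -0.50. Chromosome 12 held 20 of the 193 higher loci (4.74% of its loci against 1.68% of all), among them Ttc9, Stxbp6 and E2f6. With each ratio taken relative to the median of its window, 353 loci in place of 364 were at least 2-fold apart.

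The kinds of transcript differed in how often they were at least 2-fold apart. This was so for 222 of 10097 protein coding loci (2.20%), 14 of 334 long noncoding loci (4.19%), 54 of 954 pseudogenes (5.66%) and 74 of 127 small RNAs (58.3%). Of the 74 small RNAs, 53 were listed at 0 in 1 of the groups. Snord70, for example, was listed at 0 in the thapsigargin-labelled group and at 251 FPKM in the DMSO-labelled group, and Snord104 at 106 and 0 FPKM. Pseudogenes above 0 in both groups reached similar spreads, as Rpl15-ps3 (76.9 against 1.10 FPKM) and Rpl7a-ps11 (8.55 against 116 FPKM) show. Values of such short transcripts and of pseudogenes, whose reads can be split with their parent genes, are uncertain. The share also differed with level. Among the 9418 protein coding loci with a single symbol, divided into 5 equal classes, 8.17% of the class with the lowest level (1.00 to 5.79 FPKM) were at least 2-fold apart and 0.265% of the class with the highest. In 5 such classes of transcript length and of GC content, the median log2 ratio stayed between -0.04 and -0.01.

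Genes of the mitochondrial genome had a median of 0.44 over 12 loci, 3 of them at least 2-fold higher, against 1.68% of all loci. These 3 were mt-Nd3 (780 against 310 FPKM, 1.33), mt-Co2 (4210 against 1930 FPKM, 1.13) and the locus of mt-Co3, mt-Atp6 and mt-Atp8 (15406 against 6123 FPKM, 1.33). The first gene, the second and mt-Co3 share between 98.0% and 99.9% of their 50-base words with the chromosome 1 copies that were left out. Those copies summed to 18.8 FPKM in the thapsigargin-labelled group and to 1602 FPKM in the DMSO-labelled group. In both other close pairs, the same 3 loci were at least 2-fold lower, at log2 ratios between -1.63 and -1.28. There the copies summed to 9740 FPKM in Ago2-/- DMSO against 15.0 FPKM in Ago2+/+ tunicamycin. They summed to 2385 FPKM in Ago2-/- tunicamycin against 11.3 FPKM in Ago2+/+ thapsigargin. At the other loci, genes that share 0% of these words lay between -0.17 for mt-Rnr1 and 0.64 for mt-Nd5, with mt-Nd1 at 0.24 and mt-Cytb at 0.38. The locus of mt-Nd4 (62.2% shared) and mt-Nd4l (98.8%) was at 0.93, and mt-Co1 (28.7%) was at 0.22. Within the locus of mt-Co3, mt-Atp8 shares 0%. A split of reads between these genes and their copies was not tested.

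In absolute level, genes were ranked among loci with a single symbol and no near copies, which leaves out the mitochondrial genes above. The largest positive differences in FPKM were those of Npm1 (2037 against 1717 FPKM, 0.25), a nucleolar chaperone, Ldha, Mif, a cytokine (897 against 637 FPKM, 0.49), Tpt1, Tpi1, Hsp90ab1, Eif5a and Pgk1. The largest negative ones were those of Hspa5, Calr, an ER chaperone (1575 against 1871 FPKM, -0.25), S100a6, S100a11, Ppia, Vim, Usmg5 and Creld2. S100a6 and Vim, both at -0.16, were at 0.02 and 0.04 relative to the median of their windows. Just inside the 2-fold limit were Ablim1 (9.84 against 19.9 FPKM) and Rundc3b (2.16 against 1.02 FPKM), and just outside were Pla2g7 (7.61 against 3.76 FPKM) and Zfp873 (0.936 against 1.97 FPKM).

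The loci at least 2-fold apart overlapped in part with those of the remaining close pairs. Over the 10797 loci past the minimum in both this pair and that of Ago2-/- DMSO over Ago2+/+ tunicamycin, 13 higher loci were shared, which is 11.9% of the 109 here and 27.7% of the 47 there. Of all 10797 loci, 0.435% were higher there. Another 11 of the 109 were lower there, against 0.426% of all. With the pair of Ago2-/- tunicamycin over Ago2+/+ thapsigargin, 12 higher loci were shared, 9.68% of 124 here and 24.5% of 49 there, and 13 were lower there, against 0.45% and 0.552% of all 10878 loci. Small RNAs made up 13 of the 20 and 11 of the 22 loci shared in the same direction. Across loci, the log2 ratios of this pair and of the others had Spearman correlations of 0.0202 and -0.115 over 10797 and 10878 loci, which share libraries within each pair and are not independent.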

How the data were processed

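Total RNA from 18 libraries (6 groups of 3) was sequenced. The deposited FPKM values were made by the authors with HISAT2 2.1.0, StringTie 1.3.4d and Cuffdiff 2.2.1 after FastQC 0.11.7, on GRCm38 (submitters' processing notes) with Ensembl release 91. Cuffdiff pooled the libraries of a group, so each locus has 1 FPKM value per group, without replicate spread, counts or depth. The deposited fold change, test statistic, p, q and status columns hold the authors' own comparisons and were not used. Samples were grouped by their labels. The members of the pair and all gene lists were chosen with earlier results of these data known.

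Log2 ratios were taken after adding 0.1 FPKM, which understates differences of low genes, at loci whose mean was 1 FPKM or more. Differences of at least 2-fold were counted without a test. Named genes were the 15 highest and 15 lowest ratios and the 8 largest differences each way among single-symbol loci at 5 FPKM or more without near copies, which were ranked apart, and, in 28 lists, the members past 2-fold or with the widest ratios. Transcript classes came from GENCODE M21, matched by ID for 50180 of 50339 single-symbol loci. Each chromosome was divided into 10 windows by number of loci. Promoter windows were the 250 bases before RefSeq starts on GRCm38.p6, found for 18 of the 22 chaperone and 21 of the 31 interferon genes. The scripts were tested on simulated data (Python 3.11.15, numpy 2.4.6, pandas 2.3.3, matplotlib 3.10.9). Alternatives changed the pseudocount, the minimum, the fold, the centring and the handling of near copies. Some single-gene results are not reported here.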

Additional observations from a re-analysis of the deposited data

How the results depend on the processing

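No paired analysis was possible because each group has 1 pooled value and the columns carry no replicate numbers. For the same reason no replicate could be left out, and the depth is unknown. The count of 364 loci at least 2-fold apart became 234 with a pseudocount of 1 FPKM, 136 with a mean of at least 5 FPKM, 1119 with no minimum, 126 at 4-fold, 1003 at 1.5-fold and 220 without near copies. The other 6 settings tried for it moved it by less than 1.5 times. They include centring on the median of the chromosome (357) or of its window (353), both chosen after seeing the data, and leaving out the pseudocount (327). In the other close pairs, 164 became 109 with no pseudocount, 77 at 5 FPKM and 664 with no minimum, and 192 became 68 at 5 FPKM and 647 with no minimum. Fewer loci pass the higher minimum by its construction, and low loci enter without one.

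Among list medians, those of chemokines (-0.01 at 5 FPKM in place of -0.20), collagens (-0.14 with no minimum in place of -0.36), matrix glycoproteins (0.34 with no minimum in place of 0.16) and Wnt genes (0.24 at 5 FPKM in place of 0.04) moved by more than 0.168, the median absolute log2 ratio of all loci. The cause was not tested. The remaining 163 combinations of list and setting moved less, as did all 120 of chromosome and setting. Of the named genes, S100a6 (-0.16 to 0.02) and Vim (-0.16 to 0.04) changed sign once centred on their window. Under the same centring, Stxbp6 (0.88), E2f6 (0.93), Snhg7 (-0.96), Dnajc3 (-0.68), Col4a1 (-0.82), Col4a2 (-0.83), Egln3 (0.77) and Ablim1 (-0.81) fell short of 2-fold, and Hoxd13 (1.07) and Prrx1 (1.08) passed it. With a pseudocount of 1 FPKM, Angptl4 (0.98), Rundc3b (0.64) and Ablim1 (-0.94) fell short, as did Ablim1 (-0.98) when centred on all loci. Counts within lists depend on low genes too, and the interferon list went from 4 lower to 1 with a pseudocount of 1 FPKM and 0 at 5 FPKM, the hypoxia list from 2 higher to 0 and 1, the chemokine list from 3 lower to 2 and 1, and the positional and Wnt lists to 0 in both.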
